A study of Homo sapiens with 7 samples.

Results

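The 9 genes described here encode readers of modified cytosine and enzymes of the base excision route that removes it, namely MBD1, MBD2, MBD3, MBD4, UHRF1, UHRF2, TDG, SMUG1 and HMCES. They were chosen by name from 19970 protein-coding genes on chromosomes 1 to 22 and X. No value in the data served as a rule, but earlier results of these data were known when they were chosen. Peaks of 5-hydroxymethylcytosine (5hmC) were taken for a gene where they overlapped its RefSeq body in hg38. The measures were the percent of the body covered, the number of peaks and their positions.

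SH-SY5Y cells, from a human neuroblastoma, were used in 2 forms. Control cells (shNC) carried a lentiviral control hairpin, and knockdown cells (shTDP43) carried a hairpin against TDP-43, the nucleic acid-binding protein encoded by TARDBP. Both were infected, selected with puromycin and kept under it as stable lines, and the 3 libraries of each group are numbered as in the labels. Whether the libraries of a group are separate cultures is not stated, so a p-value reflects the spread among these libraries, and that spread may be technical. Values given in a row for a group are those of libraries 1, 2 and 3 in that order. Peak lists hold no expression, so they check neither the knockdown nor the identity of the cells; of 9 noradrenergic neuroblastoma markers, 6 carried peaks.

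5hmC is made from 5-methylcytosine by the TET dioxygenases. Proteins with a methyl-CpG-binding domain (MBD1, MBD2, MBD4) and with an SRA domain (UHRF1, UHRF2) recognise methylated DNA, and UHRF1 brings the maintenance methyltransferase DNMT1 to newly replicated DNA. Further oxidation of 5hmC gives bases that the glycosylase TDG cuts out, and base excision repair then restores cytosine.

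The lists held 117949 to 157157 peaks, which covered 78.2 to 111 Mb. Control 2 had the most peaks of any list and knockdown 1 the second most (142605). The depth of the libraries is unknown, so no counting interval is given. Where no peak was called, 5hmC may still be present below the caller's threshold.

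The upstream sequences of 3 members are shown because they differ in how close a peak came to the gene start. Each run is the 250 bases before a RefSeq gene start (GRCh38.p14), written 5′ to 3′ on the strand of the gene, with CG dinucleotides in capitals. The first UHRF1 sequence (chr19:4909251-4909500, plus strand) lay partly under a peak and the second (chr19:4909894-4910143, plus strand), before another start of the same gene, did not. MBD4 (chr3:129439949-129440198, minus strand) had no peak anywhere in its body, and HMCES (chr3:129278582-129278831, plus strand) had a peak just before the sequence shown.
UHRF1, first start: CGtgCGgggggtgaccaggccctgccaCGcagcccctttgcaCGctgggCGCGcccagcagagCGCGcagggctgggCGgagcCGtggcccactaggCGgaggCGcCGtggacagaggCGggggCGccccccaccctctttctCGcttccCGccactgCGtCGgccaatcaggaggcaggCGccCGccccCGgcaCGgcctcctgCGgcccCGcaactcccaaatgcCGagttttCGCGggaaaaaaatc
UHRF1, second start: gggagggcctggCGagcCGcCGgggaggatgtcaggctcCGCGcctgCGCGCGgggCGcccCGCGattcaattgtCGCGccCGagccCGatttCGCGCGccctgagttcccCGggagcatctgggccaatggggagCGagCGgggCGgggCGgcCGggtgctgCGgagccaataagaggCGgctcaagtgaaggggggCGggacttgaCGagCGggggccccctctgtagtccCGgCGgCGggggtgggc
MBD4: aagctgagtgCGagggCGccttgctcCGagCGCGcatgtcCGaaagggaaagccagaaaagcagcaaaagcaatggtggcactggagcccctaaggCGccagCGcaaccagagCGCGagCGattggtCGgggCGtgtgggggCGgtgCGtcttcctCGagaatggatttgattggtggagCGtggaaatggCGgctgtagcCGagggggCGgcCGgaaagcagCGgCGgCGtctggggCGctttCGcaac
HMCES: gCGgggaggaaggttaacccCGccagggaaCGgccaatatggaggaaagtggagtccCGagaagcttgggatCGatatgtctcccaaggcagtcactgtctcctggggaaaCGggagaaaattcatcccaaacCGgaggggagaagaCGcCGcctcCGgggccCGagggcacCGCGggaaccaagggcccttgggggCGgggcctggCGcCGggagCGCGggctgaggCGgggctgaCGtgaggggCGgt

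These sequences held 28, 32, 26 and 21 CG in the order printed. Over 22131 protein-coding promoter entries of RefSeq the median was 16, and 96.8% held at least 1 CG, which reads the same on both strands. All 14 entries found for 8 members held 21 to 41. SMUG1 had no entry.

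Promoter windows run from 250 bases before to 50 bases after a start. Of the 14 windows of the members, 1 overlapped a peak in some list, which is near the background: 12.2% of the 22131 windows did, and 6.61% of the 6095 windows with at least as many CG as the median of the members. That window belongs to the first UHRF1 start printed above. Its upstream 250 bases were covered over 131, 158 and 122 bases in the controls and over 95, 0 and 0 bases in the knockdowns. All 3 controls and knockdown 1 thus had a peak there and knockdowns 2 and 3 had none; 0.782% of all windows had a peak in 3 control lists and 1 knockdown list. The 2 other UHRF1 starts had no peak closer than 559 bases in any list.

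Just outside the gene starts, peaks were present in all 6 lists at HMCES and MBD4. At HMCES, which encodes a protein that crosslinks to abasic sites in single-stranded DNA, the nearest peak ended 328, 400 and 438 bases before the start in the controls and 389, 457 and 426 bases before it in the knockdowns. At MBD4, a glycosylase that removes thymine and uracil mispaired with guanine, the nearest peak lay 1105, 1166 and 1208 bases from the start in the controls and 1344, 1414 and 1191 in the knockdowns. That region (chr3:129441053-129442863) lies in the span of the neighbouring gene IFT122, and the region before HMCES (chr3:129277813-129278504) lies in no gene of the table.

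Coverage of the gene bodies ran from 0% in MBD4 to 12.4% in SMUG1. The SMUG1 value, a mean over the 6 libraries, was above that of 92.4% of the 16810 protein-coding genes that span 5 kb or more. TDG (3.56%), MBD1 (3.37%), UHRF1 (3.17%) and UHRF2 (3.02%) followed, and among these 4 neighbours the order was within the spread of the libraries. HMCES had 1.79% and MBD2 1.65%, also within their spread. MBD3 had 0.691%, from a single peak in each of 2 libraries, and MBD4 had no peak in any library, as had 27.6% of the genes of at least 5 kb.

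**Figure D1:**
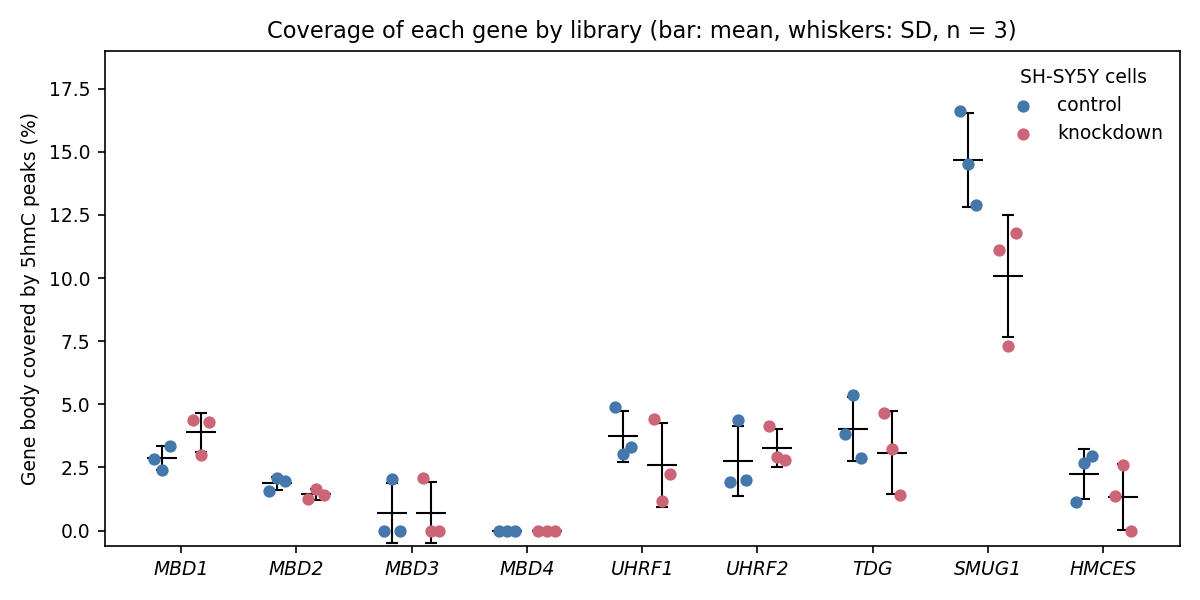
Percent of each gene body covered by 5hmC peaks (vertical axis) in the 9 genes, with 1 point per library, a bar for the group mean and whiskers for the SD (n = 3 each). SMUG1 lies above the other 8 genes in every library, and in SMUG1 alone the control points (12.9% to 16.6%) lie wholly above the knockdown points (7.32% to 11.8%).

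No member passed the test of knockdown against control. Coverage was tested as log2(percent + 1) with limma over all 10076 protein-coding genes of at least 5 kb with a mean of at least 1%, which are 59.9% of those genes, and 7 of the 9 members were among them. Of all genes tested, 0.685% had a Benjamini-Hochberg adjusted p under 0.05 (18 genes or 0.179% higher and 51 or 0.506% lower in knockdown; 13 and 95 without centring), so 0 of 7 members is near that background. At an unadjusted p under 0.05 in limma stood 1 of the 7, SMUG1, against 13.5% of all genes. The log2 difference was negative in 5 members and positive in 2, with a median of -0.25 against 0.017 over all genes tested. MBD3 and MBD4, too sparsely covered, were not tested.

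**Figure D2:**
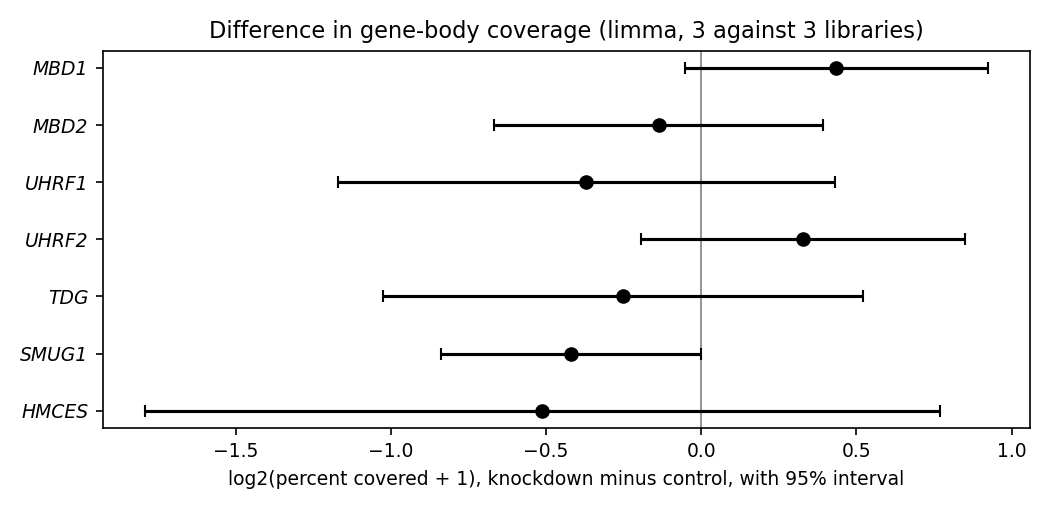
Difference between knockdown and control in log2(percent covered + 1) for the 7 tested genes, with the 95% interval from limma (3 libraries each). The interval of SMUG1 ends just below 0, those of the other 6 genes include 0, and no adjusted p is under 0.369.

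SMUG1 encodes a glycosylase that removes uracil and 5-hydroxymethyluracil, the product of deaminated 5hmC. The gene spans 54158235 to 54188985 on chromosome 12. Its coverage was 16.6%, 14.5% and 12.9% in the controls and 11.1%, 7.32% and 11.8% in the knockdowns. The 2 groups did not overlap, which was also so of 21.7% of all genes tested (18.3% with the knockdown lower). The means were 14.7% ± 1.85 and 10.1% ± 2.41 (SD, n = 3 each). On the log2 scale the knockdown was lower by 0.42 (difference -0.42, SE 0.17, adjusted p = 0.369 from limma). SMUG1 thus did not pass the test, though all 3 knockdown libraries were below all 3 controls. In peaks per 10 kb the difference was -0.18.

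Within SMUG1, single regions differed between the groups in opposite directions. Joining overlapping peaks of the 6 lists gave 7 regions, 4 of which had a peak in every library. At chr12:54166117-54167628, peaks covered 1486, 1477 and 1412 bases in the controls and 385, 388 and 735 bases in the knockdowns. Every control there had a peak over nearly the whole region, and the knockdown peaks were narrower and did not reach the control values. At chr12:54179277-54180021 the order was the opposite, with 320, 331 and 396 bases in the controls and 745, 407 and 582 in the knockdowns. These regions were chosen after their values were seen; of 71364 regions with a peak in all lists, the groups did not overlap with the knockdown lower in 14.2% and with the knockdown higher in 7.3%.

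The other SMUG1 regions with a peak in all 6 lists differed less between the groups. At chr12:54162597-54163258, peaks covered 433 to 604 bases in controls and 603 to 648 in knockdowns. At chr12:54164245-54165163 they covered 782 to 813 and 831 to 902 bases, so the knockdown values were the higher by a small margin. The regions at chr12:54172119-54173209 and chr12:54175490-54176055 had a peak in every library but knockdown 2, the list with the lowest covered length (78.2 Mb) of the 6; the part of that length in these results was not tested. The lncRNA gene LOC102724030 (chr12:54163116-54168595) lies inside the span of SMUG1, and 3 of the 7 regions overlap it, the one that was narrower in knockdown among them. Outside those 3, covered bases in SMUG1 were 2229, 1576 and 1342 in the controls and 1480, 407 and 1432 in the knockdowns, and there the groups overlapped.

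**Figure D3:**
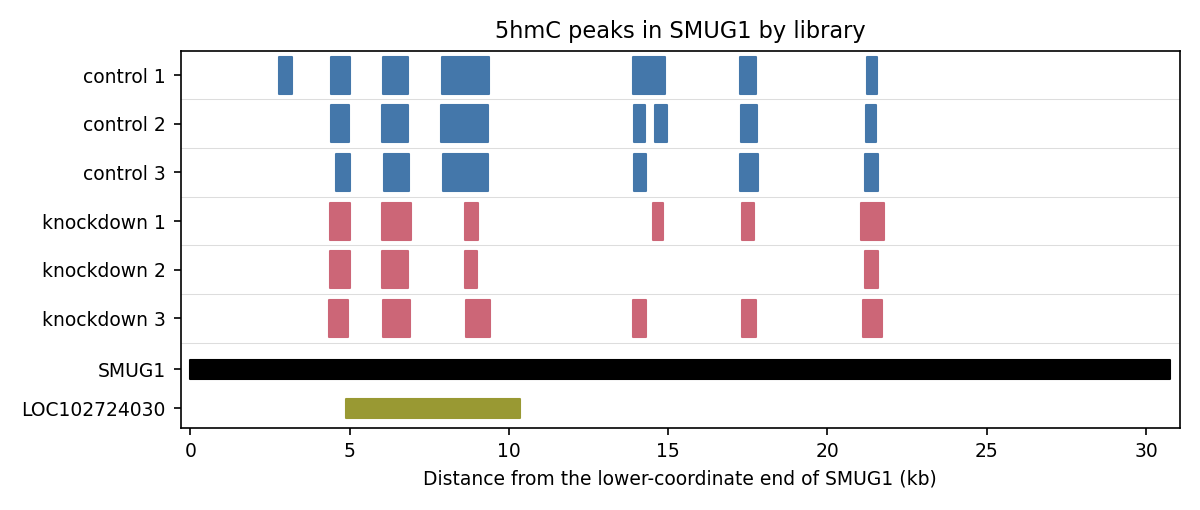
Peaks called in each of the 6 libraries along SMUG1, as distance in kb from the lower-coordinate end of the gene, with the spans of SMUG1 and LOC102724030 below. The wide control peak centred 8.64 kb from the end is narrower in the 3 knockdown libraries, and the peak at 21.4 kb is wider.

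TDG, the glycosylase for formylcytosine and carboxylcytosine, spans 103965872 to 103988874 on chromosome 12. It had 2 peaks in each control library and 1 in each knockdown library. Peak counts were fully apart in this way, in either direction, in 8.77% of all genes tested, and with the knockdown lower in 6.95%. The peak that was missing was not the same in each knockdown library. At chr12:103973975-103975041 the covered bases were 558, 922 and 312 in the controls and 1067, 743 and 0 in the knockdowns. At chr12:103975361-103975707 they were 322, 317 and 347 in the controls and 0, 0 and 320 in the knockdowns. Thus knockdowns 1 and 2 had the first region and knockdown 3 the second, while every control had both. By q, the strongest TDG peak ranked above 37.7%, 13.8% and 12.8% of the peaks in the control lists. In the knockdown lists it ranked above 4.65%, 1.91% and 16.4%, so these counts rest partly on weak peaks. In control 3 the peak of the first region had a −log10 q of 2.14, where that list starts at 1.30. Coverage of the whole gene overlapped between the groups, at 3.83%, 5.39% and 2.86% in the controls and 4.64%, 3.23% and 1.39% in the knockdowns (log2 difference -0.25, SE 0.32, limma adjusted p = 0.743). Without knockdown 3 the difference in coverage was 0.10, so its sign rested on that library. In peaks per 10 kb the difference was -0.34 (limma adjusted p = 0.0899). Both regions lay between 37.5% and 42.0% of the way along the gene, far from its start.

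HMCES, on chromosome 3 from 129278832 to 129306186, had a single region in its body, at chr3:129288573-129289469, 10.2 kb from the start. Covered bases were 305, 732 and 808 in the controls and 379, 713 and 0 in the knockdowns. All libraries but knockdown 3 had a peak, and the groups overlapped. The log2 difference in coverage was -0.51 (SE 0.53, limma adjusted p = 0.689), and without knockdown 3 it was 0.017.

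UHRF1 spans 4903080 to 4962154 on chromosome 19, and the earliest of its starts printed above lies inside this span. Its coverage was 4.87%, 3.01% and 3.30% in the controls and 4.43%, 1.17% and 2.23% in the knockdowns. Knockdown 1 lay among the controls and knockdowns 2 and 3 below them (log2 difference -0.37, SE 0.33, limma adjusted p = 0.646). Each control had 4 peaks, and the knockdowns had 4, 2 and 3. Of the 4 regions, only chr19:4910926-4912425 had a peak in every library, with 1375, 405 and 366 covered bases in the controls and 1477, 381 and 996 in the knockdowns. The region just before the first start, chr19:4908824-4909408, had a peak in 3 controls and 1 knockdown, as did 2.88% of all regions. The regions at chr19:4915127-4915926 and chr19:4930630-4931067 each lacked a peak in 1 knockdown library. The first 3 of the 4 regions also lie in the span of ARRDC5 (chr19:4890437-4916820), an arrestin-domain gene, so those peaks cannot be given to UHRF1 alone. The fourth, 27.8 kb from the lower end, lies in UHRF1 only and covered 357, 360 and 317 bases in the controls and 351, 0 and 324 in the knockdowns.

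UHRF2, the paralog of UHRF1, is the longest member, from 6413199 to 6507054 on chromosome 9, and held the most regions, 12. Coverage was 1.93%, 4.37% and 2.01% in the controls and 4.13%, 2.92% and 2.78% in the knockdowns. Controls 1 and 3 lay below every knockdown library and control 2 above them all (log2 difference 0.33, SE 0.22, limma adjusted p = 0.536). The peak counts ran the same way, at 4, 9 and 5 in the controls and 9, 6 and 6 in the knockdowns. Control 2 and knockdown 1, the libraries with 9 peaks each here, are also those with the most peaks in all; what part that has in the values was not tested.

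The UHRF2 regions found in every library lay at chr9:6415287-6415870, chr9:6418774-6419400 and chr9:6446887-6447412. The first of them was 2.38 kb from the gene start, and no list had a peak closer than 2088 bases to that start. Of the 12 regions, 6 were centred in the first 10.1% of the gene. The regions at chr9:6417484-6418163 and chr9:6473348-6473876 had a peak in all 3 knockdowns and, of the controls, in control 2 alone, a pattern shared by 2.89% of all regions. At chr9:6421393-6421812, controls 1 and 3 had a peak and no other library did. Without control 2, these would be 2 knockdown-only regions and 1 control-only region. The peaks of that control-only region were near the floor, with −log10 q of 1.74 in control 1 and 1.73 in control 3. Those lists start at 1.31 and 1.30.

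**Figure D4:**
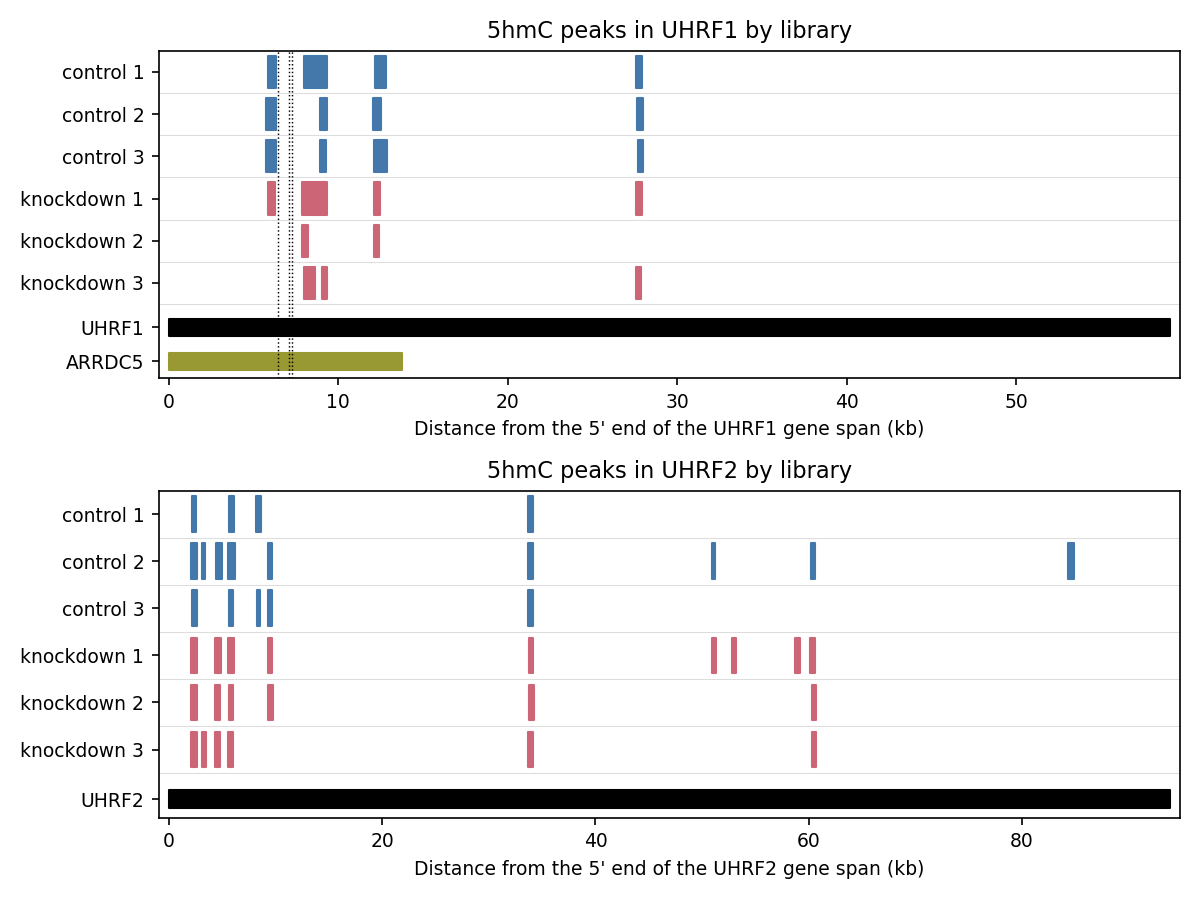
Peaks called in each of the 6 libraries along UHRF1 (top) and UHRF2 (bottom), as distance in kb from the 5' end of the gene span. Dotted lines mark the UHRF1 starts of the promoter table, and the ARRDC5 bar marks the part of UHRF1 that it overlaps; 3 of the 4 UHRF1 regions fall there, and 3 of the 12 UHRF2 regions have a peak in all 6 libraries.

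MBD1, which binds methylated CpG and represses transcription, spans 50266885 to 50281767 on chromosome 18. Coverage was 2.82%, 2.4% and 3.36% in the controls and 4.37%, 3.01% and 4.28% in the knockdowns. Knockdowns 1 and 3 were above every control and knockdown 2 was among them (log2 difference 0.44, SE 0.20, limma adjusted p = 0.394). In every library but knockdown 1, all of this coverage came from 1 region near the 3′ end of the gene, chr18:50268087-50268843, 89.4% of the way along it. Covered bases there were 420, 357 and 500 in the controls and 349, 448 and 637 in the knockdowns, and the groups overlapped. Knockdown 1 was the lowest library in that region and stood above the controls in total only with a second peak, which crossed the end of the gene. Peak strength ran the other way. By q, the strongest MBD1 peak ranked above 64.0%, 45.2% and 36.2% of the peaks in the control lists. In the knockdown lists it ranked above 16.1%, 12.3% and 17.9%. How common such a gap is among all genes was not computed. With peaks of −log10 q of at least 5 only, the difference turned to -0.43, and with equal numbers of peaks per list to -0.39. Just before the start of MBD1, in the neighbouring CXXC1, another CpG-binding protein gene, control 1 and knockdown 3 had a peak (chr18:50282092-50282581).

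MBD2, a reader within the NuRD repressor complex, spans 54151606 to 54224669 on chromosome 18. Coverage was 1.58%, 2.07% and 1.95% in the controls and 1.24%, 1.66% and 1.40% in the knockdowns. The groups overlapped only through control 1 and knockdown 2 (log2 difference -0.14, SE 0.22, limma adjusted p = 0.805). All 5 regions were centred within the first 21.5% of the gene. The region at chr18:54219756-54221307 had a peak in all libraries but knockdown 2, over 765, 679 and 1423 bases in the controls and 903 and 698 in knockdowns 1 and 3. Knockdown 2 instead had peaks of its own at chr18:54210852-54211722 and chr18:54214549-54214890.

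MBD3, the NuRD subunit whose domain binds methylated CpG only weakly in mammals, spans 1573596 to 1592865 on chromosome 19. Control 2 had 1 peak (chr19:1590452-1590847) and knockdown 1 had 1 (chr19:1587953-1588355), and the other 4 libraries had none. Both ranked low by q in their own lists, above 0.529% of the peaks in control 2 and 10.7% in knockdown 1. Their fold enrichments in the authors' lists were 1.95 and 2.97. The peaks nearest to the gene lay 7.51 to 7.85 kb beyond its 3′ end in all 6 lists. MBD4 spans 129430947 to 129439948 on chromosome 3, the chromosome of HMCES, and its 9002 bases held no peak.

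Over the 9 genes, no region was specific to a group. The 130 peaks joined into 35 regions, of which 9 (25.7%) had a peak in all 6 libraries, against 35.5% of all 200818 regions. None had a peak in 3 controls and no knockdown, or in 3 knockdowns and no control. Of all regions 1.97% and 1.06% did, so 0 of 35 is near that background in both directions. Of the 35, 10 had a peak in 1 library only (21.7% of all regions). Controls 1 to 3 had a peak in 21, 27 and 20 of the 35, and knockdowns 1 to 3 in 25, 17 and 18. The order of the libraries in these counts was led by control 2 and knockdown 1, as in the whole lists. Peaks of the members were 299 to 1486 bases wide, with a median of 439, and the authors' fold enrichment ran from 1.95 to 10.1.

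The wider set of readers and base excision genes, 35 in number and named from their known roles, also held no call. Of these, 30 had a peak in some library and 24 could be tested, with 12 positive and 12 negative differences; 0 passed the limma test in either direction (0.685% of all genes tested did), and 5 had an unadjusted p under 0.05 (13.5% of all). The groups did not overlap in 8 of the 24, where they did not in 21.7% of all genes tested. Their median difference was -0.0049, against 0.017 over all genes tested. By role, 7 of 10 other readers, 6 of 8 other glycosylases and 11 of 17 genes of later steps were tested, with medians of -0.12, 0.22 and -0.09.

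NTHL1, a glycosylase for oxidised pyrimidines, was covered more than any member, with 20.8% ± 1.12 in the controls and 21.3% ± 2.76 in the knockdowns (SD, n = 3 each). MPG, which removes alkylated purines, had 7.53%, 7.95% and 7.58% in the controls and 17.5%, 10.6% and 10.2% in the knockdowns. All MPG knockdown values were above all control values, as in 3.34% of all genes tested (log2 difference 0.73, SE 0.18, limma adjusted p = 0.188).

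The largest differences among the other tested genes were likewise not called. ZBTB33, a methyl-CpG-binding zinc finger protein, had 0%, 4.23% and 0% in controls and 6.00%, 0% and 5.92% in knockdowns (log2 difference 1.17, limma adjusted p = 0.585). OGG1, the glycosylase for oxidised guanine, had 3.55%, 1.59% and 2.53% in the controls and 0.919%, 0% and 0.832% in the knockdowns, all below the controls, as in 18.3% of all genes tested (log2 difference -1.09, limma adjusted p = 0.301). LIG3, the ligase of the last step, had 2.57%, 2.68% and 1.17% against 0%, 1.98% and 0% (log2 difference -0.99, limma adjusted p = 0.454). UNG, MUTYH, APEX1, APEX2 and POLB had no peak in any library, like MBD4.

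**Figure D5:**
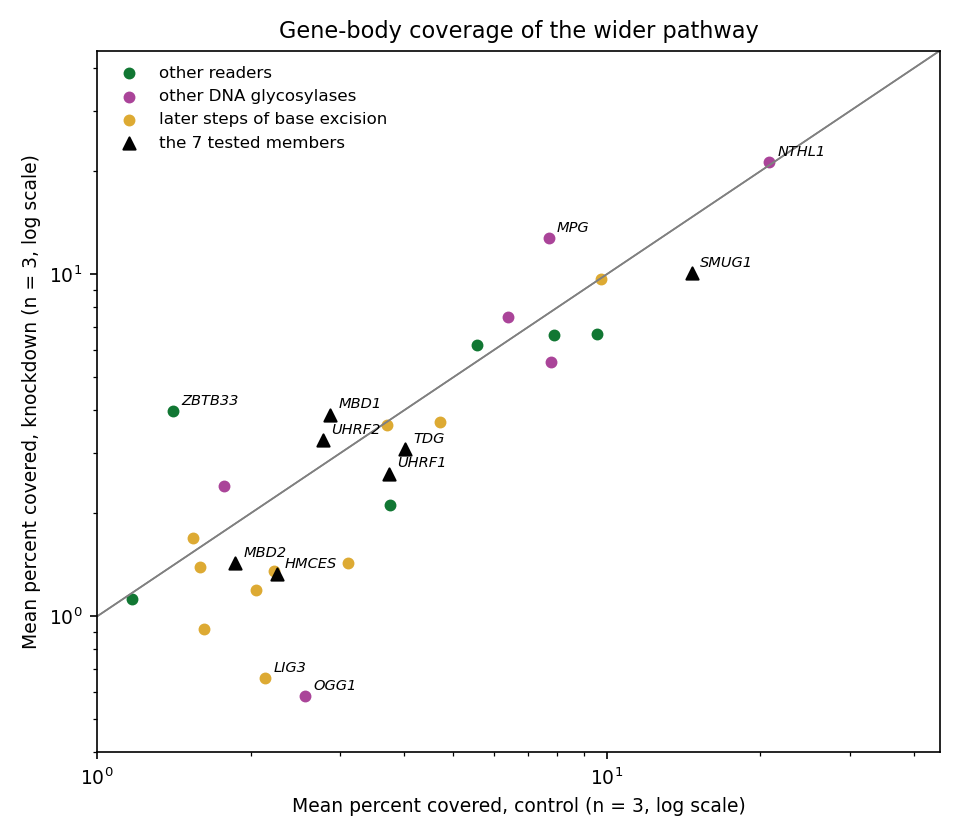
Mean percent of the gene body covered in control (horizontal) and knockdown libraries (vertical), both on log scales, for 22 of the 24 tested genes of the wider set and the 7 tested members (n = 3 libraries each, SD not drawn). The line marks equal coverage; SMUG1 (14.7% and 10.1%) is the best covered member, and NTHL1 is covered more than it in both groups.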

How the data were processed

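DNA of 3 control and 3 knockdown SH-SY5Y libraries was enriched for 5hmC by hMe-Seal (glucosylation, biotin tagging, streptavidin pulldown), per the labels' protocols. The series' input sample was not used here. Bowtie2 2.4.4, SAMtools, MACS2 2.2.6 and hg38 are named, without their roles, per the submitters' processing notes; whether the input served as control is not given in the sources used here. The authors deposited 1 peak list per library, in which each peak has a score, the fold enrichment at its summit, and its p and q as −log10 values. The fold is the authors' own and describes peaks within a list only.

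Gene spans and promoter windows came from RefSeq (GRCh38.p14); all 9 genes matched by symbol, 8 of them in the promoter table. Exons and introns were not assigned. Overlap was at least 1 base, and overlapping or adjoining peaks were joined into regions. Coverage was tested as log2(percent + 1) with each library's median deviation removed, in limma 3.58.1 (R 4.3.3, variance trend, all 6 libraries, Benjamini-Hochberg at 0.05), after a check on simulated data. Differences on this scale understate those of sparsely covered genes. Other steps used Python 3.11.15, numpy 2.4.6 and pandas 2.3.3.

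The members and lists were chosen with earlier results of these data known. Named from the wider set were the 3 best covered genes and the 2 largest differences each way; some genes of the set are not reported here. Alternatives covered the pseudocount, filters, centring, peak threshold, peak number, gene span, overlap, replicate block and each library left out.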

Additional observations from a re-analysis of the deposited data

How the results depend on the processing

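No member was called under any of the 17 alternatives run, and SMUG1, UHRF1 and UHRF2 kept the direction of their difference in all of them (SMUG1 -0.52 to -0.18, limma adjusted p 0.227 to 0.605; UHRF1 -1.07 to -0.12; UHRF2 0.14 to 0.52). The lowest limma adjusted p of a member was 0.0899, for TDG in peaks per 10 kb (difference -0.34). Signs turned for MBD1 with peaks of −log10 q of at least 5 (-0.43) and equal numbers of peaks (-0.39), for MBD2 with equal numbers of peaks (0.14), and, when 1 library was left out, for TDG (-0.48 to 0.10, the latter without knockdown 3) and HMCES (-0.98 to 0.017, the latter without knockdown 3); the cause was not tested. Over all genes, where 18 were called higher and 51 lower, the counts moved to 30 higher with equal numbers of peaks, 29 and 96 in peaks per 10 kb, 10 and 17 with 5 kb added on both sides, 79 lower without the length minimum, 95 lower without centring (13 higher) and 97 lower at −log10 q of at least 5 (20 higher). Leaving out 1 library gave 4 to 37 higher (4 without control 3, 8 without knockdown 3, 37 without control 2) and 9 to 71 lower (9 without control 3). Lower genes made up 73.9% of calls, and 88.0% without centring. Whether same-numbered libraries are paired is not stated in the labels. Correlations of same-numbered deviations were -0.13, -0.08 and -0.01, which cannot decide it with so few libraries per group. With a replicate block 0 genes were called higher and 0 lower in limma (1052 with an unadjusted p under 0.05). Among the 35 regions, 5 in place of 9 were in every library when peaks had to cover 50% of a region, and 2 were then control-only, in SMUG1 and UHRF1. Leaving out 1 library gave 9 to 13 regions in every library, 0 to 1 control-only and 0 to 2 knockdown-only, the 2 in UHRF2 without control 2. Unknown read depth limits all of these values.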

Other observations

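The genes whose coverage over the 6 libraries was most like that of SMUG1, the best covered member, were ZDHHC22 on chromosome 14 (Euclidean distance 0.188 in centred log2(percent + 1)), HMX1 on chromosome 4 (0.233) and SLC6A12 on chromosome 12 (0.246). HMX1 encodes a homeobox transcription factor and SLC6A12 a betaine and GABA transporter. ZDHHC22 was covered over 15.9%, 14.4% and 12.9% in the controls and 11.2%, 6.85% and 10.5% in the knockdowns. With 10076 genes compared over 6 libraries, close matches are found by search, and the likeness is a description with no test.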
